A study of Mus musculus with 9 samples.

Results

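The Hox genes of the mouse stomach were measured across 3 adjoining zones, the glandular corpus, the squamous forestomach and the squamocolumnar junction between them. Members were all probe sets of the expression array that carry a single gene symbol made of Hoxa, Hoxb, Hoxc or Hoxd and a number. This rule found 48 of the 45037 probe sets that are not array controls. They stand for 33 of the 18193 genes that the array names, and for 33 of the 39 Hox genes in the RefSeq gene table. All zones came from the same untreated, healthy female C57Bl/6 mice, 3 months old, and the labels name no transgene or deletion. Neighbouring strips of about 600 to 800 µm were taken from 9 stomachs, and the strips of 3 mice were combined before RNA extraction to form a series. There were 3 series, so a zone has 3 arrays, and arrays with the same series number share their mice. The glandular part secretes acid, and the non-glandular part is lined by stratified squamous epithelium. Their border in rodents is the limiting ridge, which the study set beside the gastro-esophageal junction of humans.

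Hox genes encode transcription factors with a homeodomain and lie in 4 clusters, in which gene order along the chromosome follows the order of expression along the body axis. Genes at the same place in different clusters are numbered alike as a paralog group, low numbers being expressed toward the head and high numbers toward the tail. In the developing gut they are best known from the mesenchyme, the tissue that forms connective tissue and muscle, and adult tissues keep much of the pattern of their origin. Hox proteins bind DNA together with cofactors of the Pbx, Meis and Pknox families.

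Median signals of the arrays ranged from 47.9 to 57.1, and across probe sets, which are not independent, arrays of the same zone correlated at r = 0.973 or higher. The labels name the tissue of each zone as epithelium. Squamous basal and parietal markers differed between the zones as the labels imply, and mucous markers did so only in part. The summed signal of 6 squamous basal markers ran from 487.6 to 657.4 in the corpus, from 12827.4 to 18495.6 in the junction and from 13823.1 to 16676.4 in the forestomach. That of 5 parietal cell markers ran from 36954.9 to 51976.8, from 33378.2 to 40051.2 and from 115.6 to 1968.0. That of 6 chief and mucous cell markers ran from 60108.9 to 92505.1, from 70206.8 to 82328.6 and from 1220.9 to 30171.7. Of these 6, 3 were called lower in the forestomach than in the corpus. Gkn1, Gkn2 and Tff1 were not, and Gkn2 read 387.0, 9453.6 and 11877.4 on forestomach arrays 1, 2 and 3. Forestomach arrays 2 and 3 thus held signal of some gland markers. The strips also held tissue of the wall, for which the summed signal of 10 smooth muscle markers ran from 21560.4 to 31458.4 in the corpus, from 24528.8 to 29302.0 in the junction and from 57213.9 to 62697.0 in the forestomach. In such bulk tissue, fewer cells of a type and less RNA per cell cannot be told apart.

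The members that could be tested lay in paralog groups 2 to 9. A probe set was kept for testing if it lay above the 40th percentile of its own array on 3 or more arrays. That level ran from 29.0 to 36.5. By this filter 25 of the 48 members passed, for 16 genes, and 23 did not. Of all probe sets, 65.5% passed. All 25 belong to paralog groups 2 to 9, where 34 members lie. None of the 12 members of groups 10 to 13 passed, and neither did Hoxb1 and Hoxd1, the members of group 1. Above the level on all 9 arrays were 9 members, namely a probe set each of Hoxa3, Hoxb2, Hoxb3, Hoxb4, Hoxb6, Hoxc4 and Hoxc6 and both of Hoxa5. In the forestomach 23 members lay above the level on all 3 arrays, in the junction 17 and in the corpus 9. The genes with no member that passed were Hoxa10, Hoxa11, Hoxa13, Hoxb1, Hoxb7, Hoxb9, Hoxb13, Hoxc9, Hoxc10, Hoxc13, Hoxd1, Hoxd3 and Hoxd9 to Hoxd13. Of the 23 that failed, 7 lay above the level on 1 or 2 arrays. The highest signal among them was 46.7, for Hoxa11 on corpus array 2. A failed filter gives only a bound on the signal and does not show that a gene is silent.

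**Figure D1:**
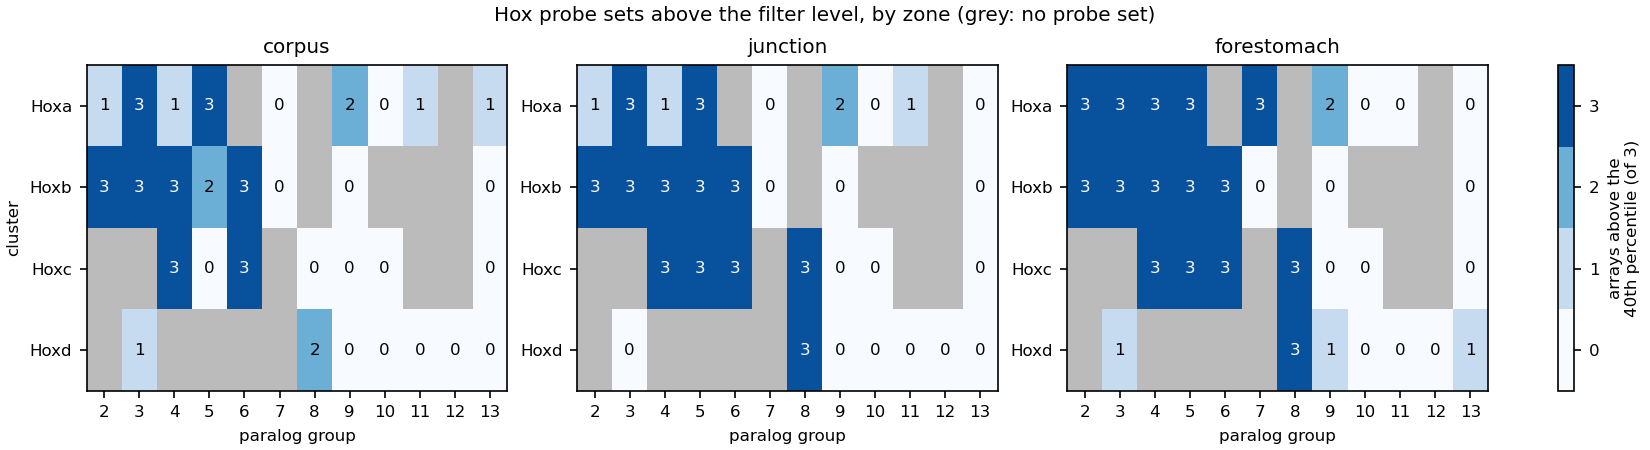
Each cell gives, for 1 Hox gene, on how many of the 3 arrays of a zone its best probe set lay above that array's 40th percentile (rows are the clusters, columns the paralog groups 2 to 13, grey cells have no probe set). Hoxc8 and Hoxc5 go from 0 arrays in the corpus to 3 in the junction and 3 in the forestomach, Hoxa7 reaches 3 in the forestomach alone, and groups 10 to 13 stay at 0 or 1.

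Signals were compared as log2(signal + 9.9) with limma over the 29511 kept probe sets, and a call is a Benjamini-Hochberg adjusted p below 0.05 over all of them. Between forestomach and corpus 17 of the 25 tested members were higher and 0 lower in the forestomach, against 25.2% of all tested probe sets higher and 27.6% lower. Between junction and corpus 8 were higher and 0 lower, against 9.14% and 9.93%. Between junction and forestomach 17 were lower in the junction and 0 higher, against 20.1% lower and 17.3% higher. At an unadjusted p below 0.05 in limma the counts of 0 remained 0, except that 1 member, Hoxb2, was then lower in the junction than in the corpus, and limma with robust and trend options also gave 0 in these directions. A member that passed the filter only through the zones where it is high was bound to differ. This holds for the probe sets of Hoxa7, Hoxc5 and Hoxc8, all below the level on every corpus array. The dimmest of Hoxc6 was below it there too and so was favoured toward a difference, though it was not called between forestomach and corpus. Hoxa7 and Hoxb3 1427605_at lay below the level on every junction array. Hoxb3 1427605_at passed through the forestomach arrays and 1 corpus array, so it was favoured toward a higher forestomach. These counts therefore describe the members and support nothing beyond that. The median log2 difference of the 25 was 1.31 for forestomach minus corpus, 0.16 for junction minus corpus and -0.90 for junction minus forestomach, where the medians of all tested probe sets were -0.04, -0.10 and -0.05. The comparisons share arrays, so their values are set side by side and not as separate evidence.

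By their median, the tested Hoxc probe sets stood higher against the corpus than those of Hoxa and Hoxb, a difference that was not tested. The median log2 differences were 3.48 and 0.85 in the forestomach and 2.14 and -0.06 in the junction. The 8 tested Hoxc probe sets cover Hoxc4, Hoxc5, Hoxc6 and Hoxc8, which are neighbours on chromosome 15. Hoxc9, Hoxc10 and Hoxc13 did not pass the filter. As deposited, 7 of the 8 rose in the forestomach and all 8 in the junction against the corpus, where 25.2% and 9.14% of all tested probe sets did. In the junction 5 were lower than in the forestomach, against 20.1%. Relative to the mean of 18 smooth muscle and fibroblast markers, given further on, 5 of 8 were called higher in the forestomach than in the corpus, against 3.37% of all tested probe sets on that scale, and 7 of 8 in the junction, against 4.48%. On that scale the order of junction and forestomach turned for 4 of the 8. In the junction 4 were called higher and 0 lower than in the forestomach, against 85.1% and 0.854% of all. Hoxc8 and the Hoxc5 probe sets passed the filter with no corpus array above its level. The counts against the corpus are therefore a description on either scale.

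Hoxc8, a regulator of thoracic patterning and of motor neuron pools, had the largest forestomach difference of the 25 probe sets. Its signal was 15.0, 18.6 and 6.2 on corpus arrays 1, 2 and 3, then 407.9, 514.5 and 692.1 in the junction and 2005.2, 1759.3 and 1721.5 in the forestomach. All corpus arrays lay below the filter level, and no array of any zone overlapped with another zone. The log2 difference from the corpus was 6.35 ± 0.24 (SE) in the forestomach (limma adjusted p = 2.72e-07) and 4.57 ± 0.24 in the junction (adjusted p = 6.32e-06). Since the corpus level is only a bound, the signal was at least 52.7-fold higher in the forestomach and at least 15.2-fold higher in the junction, taking the corpus at its arrays' 40th percentile. The junction was 3.42-fold below the forestomach (log2 difference -1.78 ± 0.24, adjusted p = 6.54e-04). Relative to the 18 markers that call was lost (-0.57, adjusted p = 0.0549).

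Hoxc5 was measured by 3 probe sets that gave the same order of the zones at different sizes. The brightest, 1439885_at, read 24.2, 32.4 and 23.9 in the corpus, 328.2, 454.5 and 471.5 in the junction and 1191.1, 1093.9 and 1153.7 in the forestomach. Its log2 difference from the corpus was 4.98 ± 0.16 in the forestomach (adjusted p = 1.51e-07) and 3.53 ± 0.16 in the junction (adjusted p = 2.80e-06), or at least 33.1-fold and at least 11.9-fold against the filter level. Probe set 1450832_at read 2.4, 8.2 and 7.2, then 136.2, 158.9 and 167.8, then 265.6, 229.6 and 208.5 in the same order of zones. Probe set 1456301_at read 6.0, 6.1 and 3.8, then 32.3, 55.1 and 62.2, then 177.1, 125.8 and 180.6. All 3 probe sets lay below the filter level on every corpus array, and none had arrays that overlapped between zones.

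The probe sets of Hoxc5 placed the junction differently below the forestomach. The log2 difference was -1.45 ± 0.16 for 1439885_at (adjusted p = 1.80e-04) and -1.54 ± 0.22 for 1456301_at (adjusted p = 7.50e-04). For 1450832_at it was -0.57 ± 0.17 (adjusted p = 0.0270). This last call was lost without forestomach array 1 or 2 or junction array 1 or 2 (adjusted p from 0.0558 to 0.0898) and without each series (0.0712 to 0.111). It was also lost with a pseudocount of 1 (0.210) and with no filter (0.0539). Relative to the 18 markers the calls of 1439885_at (-0.25, adjusted p = 0.271) and 1456301_at (-0.33, adjusted p = 0.245) were lost. The difference of 1450832_at turned to 0.63 (adjusted p = 0.0136).

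Hoxc4, whose mutants have changed neck and thoracic vertebrae, kept some signal in the corpus. It read 43.1, 69.0 and 54.9 in the corpus, 243.4, 342.7 and 377.5 in the junction and 753.7, 681.1 and 715.2 in the forestomach. The zones did not overlap, and the corpus arrays lay above the filter level. Against the corpus the forestomach was 11.2-fold higher (log2 3.49 ± 0.19, adjusted p = 1.31e-06) and the junction 5.04-fold higher (2.33 ± 0.19, adjusted p = 7.09e-05). The junction was 2.23-fold below the forestomach (-1.16 ± 0.19, adjusted p = 0.00169), a call lost relative to the 18 markers (0.05, adjusted p = 0.839).

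Hoxc6, a homeobox gene of the thoracic region, differed from its neighbours in that its junction and forestomach arrays overlapped. Probe set 1427361_at read 65.6, 49.1 and 39.7 in the corpus, 110.3, 173.3 and 151.6 in the junction and 187.7, 258.7 and 162.2 in the forestomach. Its log2 difference from the corpus was 1.79 ± 0.23 in the forestomach (adjusted p = 2.16e-04) and 1.34 ± 0.23 in the junction (adjusted p = 0.00521, and 0.0686 and 0.0753 without series 2 and 3). Probe set 1427362_x_at, of a kind that can also bind related transcripts, read 25.1, 76.1 and 42.0 in the corpus, 155.8, 159.8 and 168.4 in the junction and 145.8, 215.4 and 176.1 in the forestomach. Its differences from the corpus were 1.79 ± 0.29 (adjusted p = 8.25e-04) and 1.67 ± 0.29 (adjusted p = 0.00532, and 0.0969 without series 3).

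The third Hoxc6 probe set was dim. 1427454_at read 28.4, 27.5 and 20.5 in the corpus, 50.4, 61.8 and 49.0 in the junction and 25.5, 57.0 and 53.6 in the forestomach, where array 1 lay at the corpus level. Its corpus arrays lay below the filter level, and the junction was at least 1.54-fold higher. It was called in the junction against the corpus (0.85 ± 0.24, adjusted p = 0.0372), but not without any single corpus or junction array (adjusted p from 0.0654 to 0.111) or without series 2 or 3 (0.179 and 0.188), with no filter (0.0712) or relative to the markers (0.66, adjusted p = 0.0732). It was not called in the forestomach (0.60 ± 0.24, adjusted p = 0.0607) as deposited, but was without forestomach array 1 (0.00206) or series 1 (0.00911), with quantile normalization (0.74, adjusted p = 0.0184) and with median centring (0.71, adjusted p = 0.0289). Relative to the 18 markers it was called lower there (-0.80, adjusted p = 0.00609), and the forestomach calls of 1427361_at (0.39, adjusted p = 0.147) and 1427362_x_at (0.40, adjusted p = 0.136) were lost. On the deposited scale none of the 3 was called between junction and forestomach, where the differences were -0.45 (95% interval -0.98 to 0.07), -0.13 (-0.78 to 0.53) and 0.25 (-0.28 to 0.79).

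**Figure D2:**
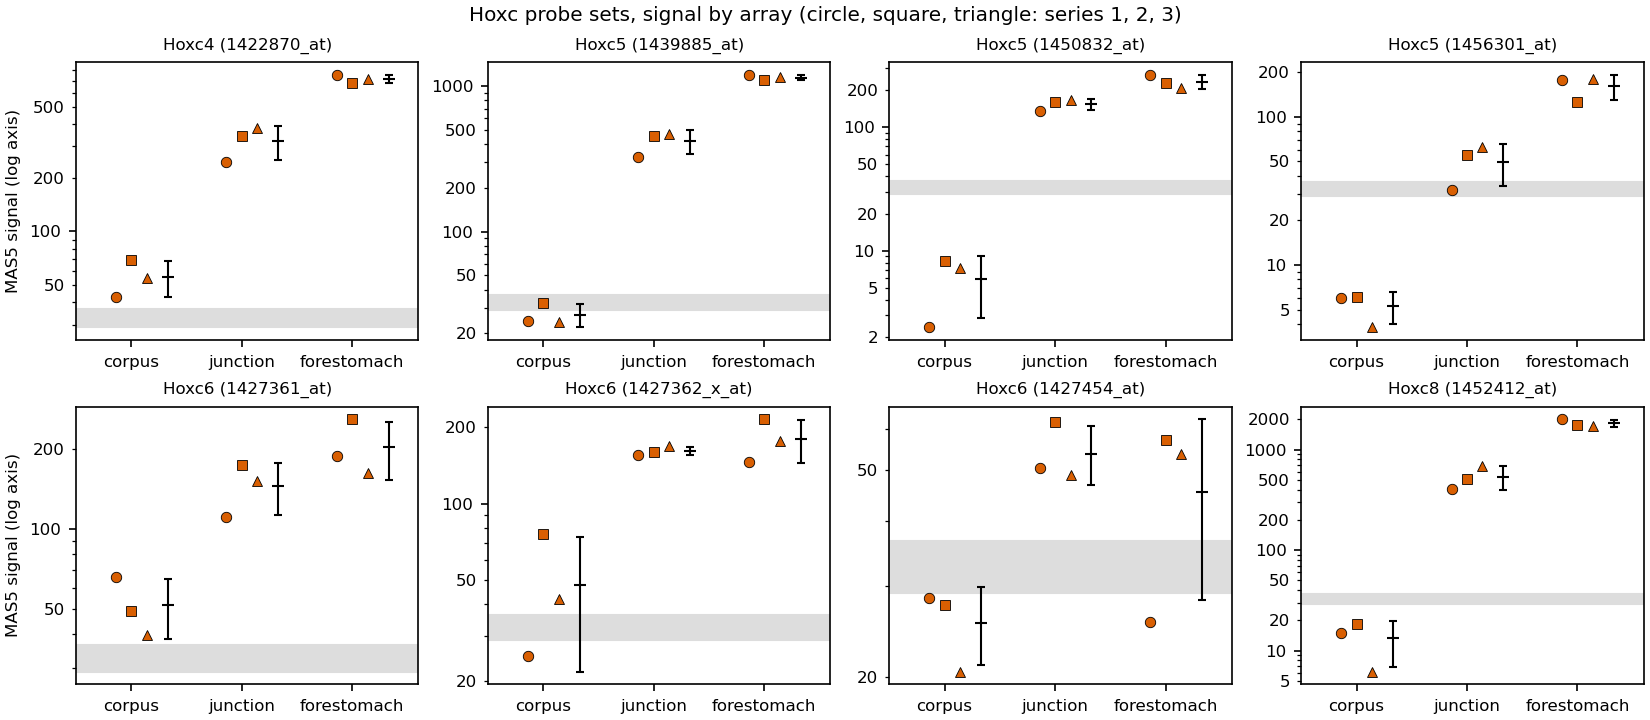
MAS5 signal (log axis, its range set for each panel) of the 8 Hoxc probe sets on every array, with marker shape for the series, bars for mean ± SD of 3 arrays and a grey band for the arrays' 40th percentiles (29.0 to 36.5). Hoxc4, Hoxc5 and Hoxc8 climb from corpus to junction to forestomach without overlap, and Hoxc6 overlaps between junction and forestomach. Relative to 18 smooth muscle and fibroblast markers the order of junction and forestomach turns for Hoxc4, Hoxc5 1450832_at and Hoxc6 1427361_at and 1427362_x_at. On that scale 0 of the 8 are called lower in the junction than in the forestomach.

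The upstream sequence of 2 genes with different patterns is shown here. RefSeq start sites of build GRCm38.p6 were in the table used for 22 Hox genes, and Hoxc4 was the only one of the 4 Hoxc genes among them. Hoxa7, described next, was above the filter level in the forestomach arrays and below it in the other zones. The 250 bases before the start are printed 5′ to 3′ on the gene's strand, Hoxc4 at chr15:103034145-103034394 on the plus strand and Hoxa7 at chr6:52218574-52218823 on the minus strand. Capitals mark matches to the motifs named after them.
Hoxc4: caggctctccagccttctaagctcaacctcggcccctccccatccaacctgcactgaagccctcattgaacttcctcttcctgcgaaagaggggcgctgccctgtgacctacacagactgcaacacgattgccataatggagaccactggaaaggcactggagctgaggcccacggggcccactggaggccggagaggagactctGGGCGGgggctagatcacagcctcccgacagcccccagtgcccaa
Hoxa7: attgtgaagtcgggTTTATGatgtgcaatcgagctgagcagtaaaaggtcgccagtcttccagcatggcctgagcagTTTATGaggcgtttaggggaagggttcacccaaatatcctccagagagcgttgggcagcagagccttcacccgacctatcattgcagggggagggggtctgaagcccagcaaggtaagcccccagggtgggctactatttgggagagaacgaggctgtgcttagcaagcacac

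Both strands of these windows were searched for 6 motifs, and the share of all 32851 RefSeq promoter windows of that length with a match is given for each. The GC box was searched as GGGCGG, found in 32.7% of windows, and Hoxc4 held it with the first base 45 bases before the start. The motif of the Cdx factors, which act on Hox clusters in the trunk, was searched as TTTATG and is in 10.8% of windows. Hoxa7 held it with first bases 236 and 173 bases before the start. The other motifs were in neither window. The TATA box was searched as TATAAA and is in 12.4% of windows. The CCAAT box is in 33.8% of windows. The AP-1 motif was searched as TGANTCA and is in 6.75% of windows. The joint Hox and Pbx motif was searched as TGATNNAT and is in 7.68% of windows. These matches describe letters and show no binding.

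The Hoxa and Hoxb probe sets called against the corpus were those of Hoxa5, Hoxa7, Hoxb3, Hoxb4, Hoxb5 and Hoxb6, all in the forestomach. On the deposited scale 9 of the 15 tested probe sets were higher in the forestomach than in the corpus and 0 lower, against 25.2% and 27.6% of all. Between junction and corpus 0 were called, where the shares of all were also low, at 9.14% higher and 9.93% lower. In the junction 11 were lower than in the forestomach, against 20.1%. Relative to the 18 smooth muscle and fibroblast markers, 10 of the 15 forestomach differences turned sign, 1 was called higher and 7 lower. That scale takes the same amount off every probe set, and 3.37% of all tested probe sets were called higher on it and 86.3% lower, so the turned signs say nothing particular of Hoxa and Hoxb. The 15 differences of the junction from the corpus ran from -0.53 to 0.26 with a median of -0.06.

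Hoxa7, of the trunk region, passed the filter through the forestomach alone, so its differences are a description. It read 7.9, 7.3 and 4.4 in the corpus, 7.9, 7.2 and 10.0 in the junction and 75.7, 78.1 and 86.3 in the forestomach. All 6 corpus and junction arrays lay below the filter level, and the 3 forestomach arrays lay above it. Its forestomach signal was at least 2.31-fold above that of the corpus (log2 2.46 ± 0.12, adjusted p = 7.54e-07) and at least 2.57-fold above the junction (junction minus forestomach -2.30 ± 0.12, adjusted p = 3.79e-06). The junction and the corpus differed by 0.16 (95% interval -0.12 to 0.43) on a scale where both are below the filter level. Relative to the 18 markers Hoxa7 was still higher in the forestomach than in the corpus (1.06 ± 0.21, adjusted p = 3.36e-04).

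Hoxa5, which takes part in lung and stomach development, was above the filter level on all 9 arrays. Its brighter probe set 1448926_at read 141.0, 157.3 and 142.7 in the corpus, 179.6, 169.5 and 142.0 in the junction and 492.3, 277.2 and 394.0 in the forestomach. The forestomach arrays lay above all others. The log2 difference from the corpus was 1.31 ± 0.19 in the forestomach (adjusted p = 5.17e-04) and 0.14 in the junction (95% interval -0.30 to 0.58). The junction was 2.24-fold below the forestomach (adjusted p = 0.00177). Relative to the markers the forestomach and the corpus differed by -0.09 (adjusted p = 0.712).

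The other Hoxa5 probe set, 1443803_x_at, read 142.9, 84.2 and 53.6 in the corpus, 99.0, 123.0 and 99.2 in the junction and 256.1, 213.0 and 199.2 in the forestomach, where all arrays were highest. It was higher there by 1.25 ± 0.28 (adjusted p = 0.00498, and 0.0583 without series 2). In the junction it was lower than in the forestomach by -0.99 ± 0.28 (adjusted p = 0.0222). That call was lost without forestomach array 1, junction array 1 or junction array 3 (0.0716, 0.0661 and 0.0614) and without series 2 (0.106). Relative to the markers both of these differences turned sign (-0.14 and 0.21).

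Hoxb3, a gene of the hindbrain and pharynx, had the larger forestomach differences of its cluster together with Hoxb6. Probe set 1456229_at read 89.4, 92.1 and 69.8 in the corpus, 106.3, 83.7 and 70.0 in the junction and 330.8, 217.3 and 263.7 in the forestomach. Corpus and junction arrays overlapped and all forestomach arrays lay above them. Against the corpus the forestomach was 2.97-fold higher (log2 1.57 ± 0.19, adjusted p = 1.66e-04), and the junction 2.90-fold below the forestomach (adjusted p = 4.07e-04). The dimmer 1427605_at read 8.8, 23.0 and 43.5 in the corpus, 10.5, 22.7 and 26.2 in the junction and 66.8, 71.3 and 104.8 in the forestomach. All its junction arrays lay below the filter level, which puts the forestomach at least 2.55-fold above the junction. It passed the filter through the forestomach arrays and 1 corpus array, so its differences are a description. Its log2 differences were 1.48 ± 0.37 for forestomach minus corpus (adjusted p = 0.00940, and 0.0732 without series 2) and -1.63 ± 0.37 for junction minus forestomach (adjusted p = 0.00886, and 0.0698 without series 2). Relative to the markers the calls of both probe sets were lost. The forestomach then differed from the corpus by 0.17 (adjusted p = 0.470) and 0.08 (adjusted p = 0.832), and the junction from the forestomach by -0.33 (adjusted p = 0.178) and -0.43 (adjusted p = 0.280).

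Hoxb6 read 42.2, 64.4 and 61.0 in the corpus, 69.1, 50.5 and 68.7 in the junction and 267.0, 178.1 and 134.1 in the forestomach. Its forestomach arrays differed by more among themselves than those of the other zones, and all lay above them. Against the corpus the forestomach was 3.01-fold higher (1.59 ± 0.25, adjusted p = 6.71e-04) and the junction 2.71-fold below the forestomach (adjusted p = 0.00206). Relative to the markers both calls were lost (0.19, adjusted p = 0.504, and -0.24, adjusted p = 0.416).

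Hoxb5, known for its part in the neural crest cells of the gut wall, read 29.9, 56.5 and 54.0 in the corpus, 58.8, 64.9 and 44.8 in the junction and 132.4, 130.4 and 120.7 in the forestomach. The forestomach arrays were tightly grouped and above all others. Against the corpus the forestomach was 2.49-fold higher (1.32 ± 0.20, adjusted p = 6.83e-04) and the junction 2.10-fold below it (adjusted p = 0.00361), and relative to the 18 markers both differences turned sign (-0.08 and 0.13).

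Hoxb5os, an opposite-strand transcript of the Hoxb cluster outside the members, read 62.2, 70.7 and 66.6, then 138.3, 99.8 and 97.4, then 201.3, 221.4 and 283.6 from corpus to junction to forestomach. Unlike the 15 Hoxa and Hoxb probe sets, it was called in the junction against the corpus (0.66 ± 0.17, adjusted p = 0.0265), and it was higher in the forestomach by 1.67 ± 0.17 (adjusted p = 4.62e-05). The difference between Hoxb5os and Hoxb5 was not tested. Hoxd3os1, the other opposite-strand transcript that passed the filter, was not called in any comparison (adjusted p = 0.115, 0.895 and 0.186).

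Hoxb4, known for the growth of blood stem cells, was raised less. Probe set 1460379_at read 46.9, 50.2 and 64.7 in the corpus, 53.2, 44.5 and 50.3 in the junction and 85.0, 90.4 and 118.9 in the forestomach, where all arrays lay above the others. Its forestomach difference was 0.76 ± 0.15 (adjusted p = 0.00318), and its difference of junction from forestomach was -0.86 ± 0.15 (adjusted p = 0.00270). Probe set 1451761_at read 32.6, 33.1 and 39.0, then 38.4, 19.0 and 43.1, then 75.5, 60.5 and 77.9, and its differences were 0.85 ± 0.22 (adjusted p = 0.00992) and -0.94 ± 0.22 (adjusted p = 0.00916), and both calls were lost without series 1 (0.0944 and 0.0690). Relative to the 18 markers the forestomach differences of both probe sets turned to -0.64 and -0.54.

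Hoxb2 and Hoxa3 were called in 1 comparison each. Hoxb2, a hindbrain gene, read 277.5, 201.9 and 164.0 in the corpus, 198.8, 131.5 and 108.3 in the junction and 285.9, 264.4 and 267.2 in the forestomach, with overlap between junction and corpus. The junction was below the forestomach (-0.90 ± 0.23, adjusted p = 0.0162), a call lost without junction array 2 or 3 (0.0505 and 0.0522) and without series 2 or 3 (0.130 and 0.0861). Without junction array 1 the junction was also called below the corpus (-0.76, adjusted p = 0.0408).

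Hoxa3, needed for the thymus and parathyroid, read 76.7, 62.2 and 49.2 with 1427433_s_at in the corpus, 52.6, 62.9 and 32.2 in the junction and 136.2, 58.6 and 112.8 in the forestomach, where array 2 lay among the other zones. The junction was called below the forestomach (-0.89 ± 0.31, adjusted p = 0.0486), and the call was lost with the series as a block (0.0552), with a pseudocount of 1 (0.0593), with no filter (0.0828), with the 6 compared arrays alone (0.0760), without 7 of the 9 single arrays (all but forestomach array 2 and junction array 2, up to 0.151) and without series 1 or 3 (0.218 and 0.299). Its forestomach difference from the corpus (0.58, adjusted p = 0.145) was called without forestomach array 2 or series 2 (0.90 each, adjusted p = 0.0218 and 0.0488). Relative to the markers both the Hoxb2 and the Hoxa3 difference turned to 0.31.

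The members that passed the filter and were not called in any comparison were Hoxa2, Hoxa4, Hoxa9, the second Hoxa3 probe set and the second Hoxd8 probe set. Their signals lay between 11.1 and 83.2. With the series as a block Hoxa4 was called higher in the forestomach than in the corpus (0.46, adjusted p = 0.00690) and lower in the junction than in the forestomach (-0.55, adjusted p = 0.00571). Without the block the adjusted p were 0.118 and 0.0924, and quantile normalization called the first (0.60, adjusted p = 0.0480). Without junction array 1 the junction was called below the forestomach for Hoxa2 (-0.84, adjusted p = 0.0287) and for Hoxa3 1452421_at (-0.99, adjusted p = 0.0206), which was also called without series 1 (-0.84, adjusted p = 0.0342). Hoxa9 read 83.2, 11.1 and 49.3 on the corpus arrays, a spread that leaves its forestomach difference between -1.23 and 1.02 (95% interval).

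Hoxd8 was the gene of the Hoxd cluster with members that passed. Probe set 1431099_at read 57.4, 35.1 and 36.2 in the corpus, 53.2, 56.1 and 51.5 in the junction and 80.0, 86.9 and 72.2 in the forestomach, where all arrays were highest. It was higher in the forestomach than in the corpus (0.79 ± 0.16, adjusted p = 0.00321, and 0.0613 without series 2). It was lower in the junction than in the forestomach (-0.49 ± 0.16, adjusted p = 0.0395), a call lost without any single forestomach or junction array (0.0544 to 0.109) or any series (0.0683 to 0.161), with no filter (0.0765) and with robust limma and a trend (0.0737). Relative to the markers these differences turned to -0.61 and 0.71. The second probe set, 1433638_s_at, was not called (forestomach minus corpus 0.58 ± 0.23, adjusted p = 0.0611) on the deposited scale with all arrays. It was called higher without corpus array 1 or junction array 2 (0.0240 and 0.0474), with quantile normalization (0.71, adjusted p = 0.0211) and with median centring (0.69, adjusted p = 0.0232), and lower relative to the markers (-0.82, adjusted p = 0.00619). Its junction difference from the corpus (0.69, adjusted p = 0.0694) was called with quantile normalization (0.80, adjusted p = 0.0312) and median centring (0.79, adjusted p = 0.0362). Without corpus array 1 the junction difference from the corpus was called for both Hoxd8 probe sets (0.48, adjusted p = 0.0382, and 0.88, adjusted p = 0.0441).

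**Figure D3:**
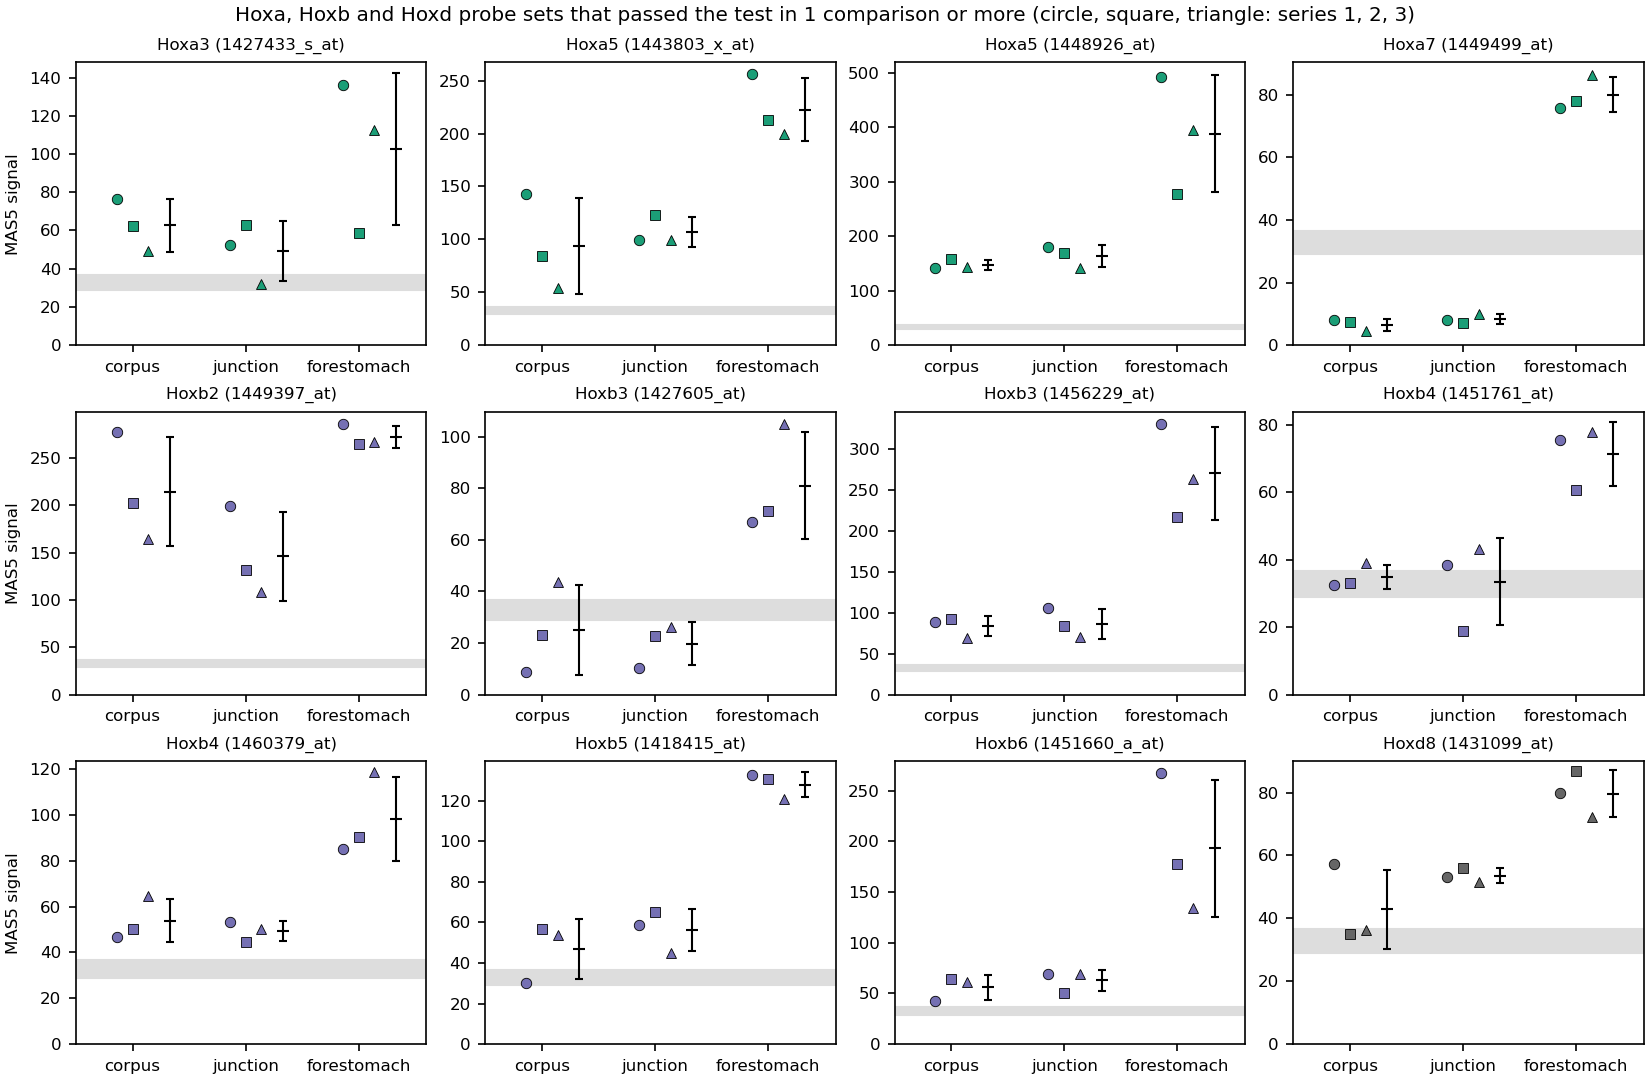
MAS5 signal (linear axis from 0, its range set for each panel) of the 12 Hoxa, Hoxb and Hoxd probe sets called in at least 1 comparison, with marker shape for the series, bars for mean ± SD of 3 arrays and a grey band for the arrays' 40th percentiles (29.0 to 36.5). Forestomach arrays lie above junction arrays in every panel but Hoxa3. Corpus and junction arrays overlap in every panel, and for Hoxa3 and Hoxb2 the corpus arrays also overlap with the forestomach. Relative to 18 smooth muscle and fibroblast markers the forestomach difference from the corpus turns sign for Hoxa3, Hoxa5, Hoxb2, Hoxb4, Hoxb5 and Hoxd8.

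Across the 25 tested members the arrays of forestomach and corpus did not overlap, with the forestomach higher, for 18, against 29.4% of all tested probe sets. The junction lay wholly above the corpus for 9, against 15.7%, namely the 8 Hoxc probe sets and 1433638_s_at of Hoxd8. It lay wholly below the forestomach for 16, against 28.2%. The difference between clusters was not tested.

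**Figure D4:**
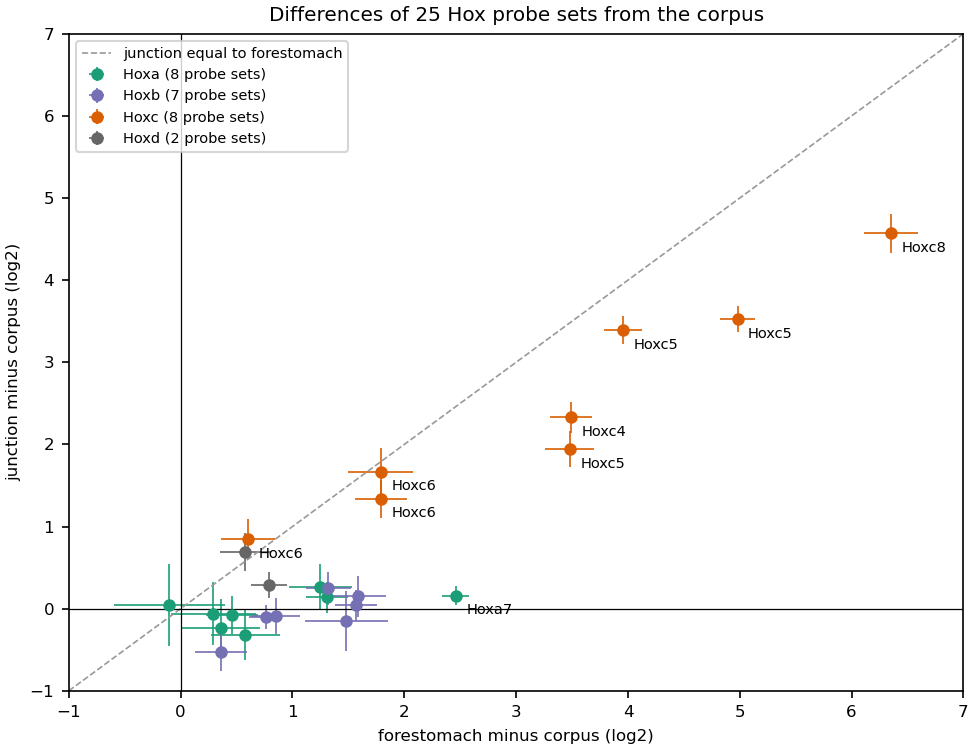
Log2 difference from the corpus of the 25 tested Hox probe sets, in the forestomach (horizontal axis) and in the junction (vertical axis), with standard errors from limma, which share the corpus arrays. The dashed line marks equal junction and forestomach levels, 7 of the 8 Hoxc probe sets lie below it, up to Hoxc8 at 6.35 and 4.57, and Hoxa and Hoxb probe sets lie near 0 on the vertical axis, with Hoxa7 at 2.46 and 0.16. Relative to 18 smooth muscle and fibroblast markers the horizontal values of 10 of 15 Hoxa and Hoxb, 1 of 8 Hoxc and both Hoxd8 probe sets turn sign.

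The place of the junction between its neighbours was expressed within each series as the share of the linear gap from corpus to forestomach that the junction had covered, in percent, for the 17 members called between forestomach and corpus. For the 7 Hoxc probe sets the mean over 3 series ran from 29.4% to 87.5% with a median of 40.6%. Hoxc8 stood at 29.4 ± 10.2% (SD, n = 3 series), Hoxc4 at 40.6 ± 10.9% and Hoxc5 at 29.8 ± 13.1%, 35.1 ± 7.87% and 66.2 ± 14.6%. The 2 probe sets of Hoxc6 stood at 62.4 ± 27.5% and 87.5 ± 24.8%. For the 9 Hoxa and Hoxb probe sets the mean ran from -9.13% to 8.59% with a median of 2.23%. Their spread over series was wide for some, with 7.55 ± 40.1% for Hoxa5 1443803_x_at and -9.13 ± 36.7% for Hoxb4 1451761_at. Hoxa7 stood at 2.23 ± 3.99%, which is also the median, but all its corpus and junction arrays lay below the filter level. Its share is therefore uncertain, and the small spread is no measure of its precision. The junction arrays of Hoxb3 1427605_at also lay below that level, as did the corpus arrays of Hoxc8 and the Hoxc5 probe sets. Their shares carry the same limit at that end. Hoxd8 1431099_at stood at 21.5 ± 34.7%. Relative to the 18 markers the forestomach difference that forms the base of this share turned sign for 5 of the 9, so the share describes the deposited scale.

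Markers of the tissue layers gave the same share as follows, for those higher in the forestomach than in the corpus. The 10 smooth muscle markers had a median of 1.53% (-13.0% to 21.1%) and 7 fibroblast markers one of 31.8% (0.94% to 52.2%). The 5 squamous basal markers had a median of 101% (69.4% to 208%) and the 7 cornified layer markers one of 38.7% (26.2% to 105%). The part of these cell types in the Hox values was not tested.

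Smooth muscle markers differed between the zones as the Hoxa and Hoxb values did, and fibroblast markers and nerve and glia markers did so in part. Of all tested probe sets 25.2% were higher and 27.6% lower in the forestomach than in the corpus. Between junction and corpus 9.14% were higher and 9.93% lower, and 20.1% were lower in the junction than in the forestomach. All 10 smooth muscle markers were higher in the forestomach than in the corpus, with a median log2 difference of 1.59, and all 10 were lower in the junction than in the forestomach, with a median of -1.61. None was called between junction and corpus (median 0.03). Of the 8 fibroblast markers 7 were higher in the forestomach than in the corpus (median 0.99), 1 was higher in the junction than in the corpus (0.41) and 6 were lower in the junction than in the forestomach (-0.69). The summed fibroblast signal ran from 16240.0 to 18761.9 in the corpus, from 22496.5 to 23980.4 in the junction and from 30801.2 to 38644.5 in the forestomach. Of 8 nerve and glia markers 4 were higher in the forestomach than in the corpus (median 0.52). In the junction 0 of them were higher and 1 lower than in the corpus (median -0.32), and 6 were lower than in the forestomach (-0.81). Their summed signals were 597.1 to 631.7, 433.3 to 502.1 and 811.0 to 943.1 in corpus, junction and forestomach. Of 6 endothelial markers 1 was higher and 2 were lower in the forestomach than in the corpus (median -0.05). No marker of these lists was at 0.

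The 10 smooth muscle and 8 fibroblast markers served as a second scale, on which each array was centred on their mean, so that a value is a level relative to these markers. This moved the median log2 difference of all tested probe sets between forestomach and corpus from -0.04 to -1.44. Of the 8 Hoxc probe sets 5 were then called higher in the forestomach and 1 lower, with a median of 2.09, where 3.37% of all tested probe sets were higher and 86.3% lower. Hoxc8 was at 4.95 ± 0.26 (adjusted p = 7.70e-09), Hoxc5 1439885_at at 3.58 ± 0.21 (adjusted p = 1.62e-08) and Hoxc4 at 2.09 ± 0.22 (adjusted p = 2.38e-06). Of the 15 Hoxa and Hoxb probe sets 1, Hoxa7, was called higher, 7 were called lower and 7 were not called, with a median of -0.54. Between junction and corpus 7 of the 8 Hoxc and 0 of the 15 Hoxa and Hoxb probe sets were called higher on this scale, and 0 were lower, against 4.48% and 12.3% of all. Between junction and forestomach 8 of the 25 members were higher and 1 lower, against 85.1% and 0.854%. Hoxc8 was then at 4.38 ± 0.26 (adjusted p = 2.12e-07) in the junction against the corpus. Hoxa7, Hoxc8 and the Hoxc5 probe sets passed the filter with no corpus array above its level. The higher calls against the corpus are therefore a description on this scale too.

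**Figure D5:**
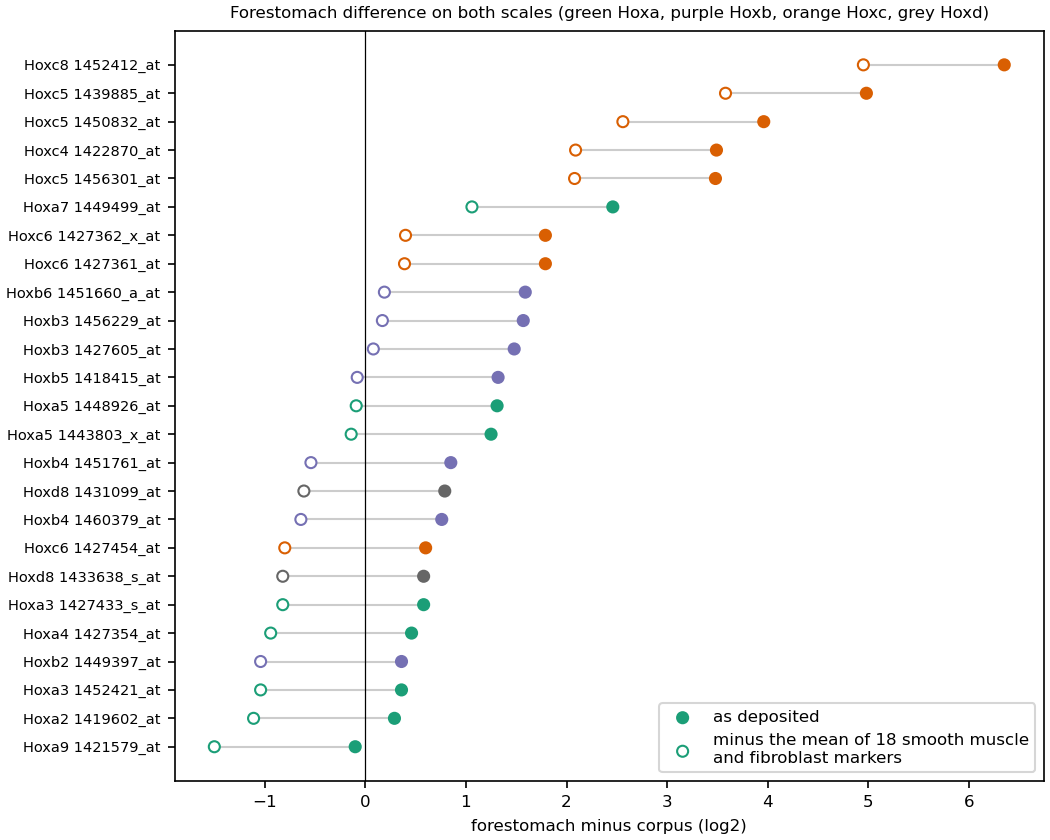
Log2 difference of forestomach minus corpus for the 25 tested Hox probe sets, as deposited (filled) and after each array was centred on the mean of 18 smooth muscle and fibroblast markers (open), coloured by cluster. Hoxc8, the 3 Hoxc5 probe sets, Hoxc4 and Hoxa7 stay above 1 on both scales, and 13 probe sets that are above 0 as deposited turn to below 0 against the markers.

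Genes that work with Hox proteins were compared by lists. Of 11 genes of the Pbx, Meis, Pknox and Tgif families, homeodomain factors that include the Hox cofactors, 9 passed the filter. Between forestomach and corpus 4 were higher and 1 lower, against 25.2% and 27.6% of all tested probe sets, with a median log2 difference of 0.42. Meis1 read 171.2, 215.5 and 143.9 in the corpus, 324.4, 358.1 and 356.8 in the junction and 847.6, 693.3 and 778.4 in the forestomach. The 3 zones did not overlap, and Meis1 was called in the junction against the corpus (0.95 ± 0.15, adjusted p = 0.00362) as well as in the forestomach (2.08 ± 0.15, adjusted p = 6.92e-06). Meis2 read 210.1, 246.4 and 216.0, then 235.4, 212.1 and 212.2, then 846.3, 714.0 and 802.2 in the same order, and was raised in the forestomach (1.77) without a call in the junction (-0.02). Pknox1 (0.77) and Pbx2 (0.42) were higher and Tgif1 lower (-0.58) in the forestomach. In the junction against the corpus 1 of the 9 was higher and 1, Pbx3 (-0.59), lower, against 9.14% and 9.93% of all.

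Of 18 genes that set Hox expression in the embryo, among them Cdx genes and the retinoic acid system, 9 were measured. In the forestomach 4 were higher and 4 lower than in the corpus, against 25.2% and 27.6% of all, and in the junction 2 were higher, against 9.14%. Cyp26b1, an enzyme that breaks down retinoic acid, read 29.9, 7.5 and 14.7 in the corpus, 79.8, 126.0 and 127.4 in the junction and 227.1, 246.3 and 270.7 in the forestomach. Its zones did not overlap, and all corpus arrays lay below the filter level, so the forestomach was at least 7.15-fold and the junction at least 3.14-fold above the corpus. Aldh1a2, which makes retinoic acid, was higher in both (0.60 and 0.55), and the receptor gene Rarb was higher in the forestomach (0.78). Egr2, below the filter level in the corpus, was at least 2.38-fold higher in the forestomach. Gdf11, below that level in the forestomach, was at least 1.49-fold lower there than in the corpus, and Aldh1a3 (-0.75), Aldh1a1 and Nr6a1 were lower too. Cyp26b1 and Egr2 passed the filter with no corpus array above its level, and Gdf11 with no forestomach array above it. Their differences between those zones are therefore a description. Cdx1, Cdx2 and Cdx4 did not pass the filter.

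Polycomb proteins keep Hox clusters silent and Trithorax proteins keep them active. Of 28 such genes 27 were measured, of which 9 were higher and 3 lower in the forestomach than in the corpus (median 0.05), against 25.2% and 27.6% of all tested probe sets. The called members with the largest differences were the demethylase gene Kdm6b (-0.93) and the Polycomb genes Cbx2 (0.77), Cbx6 (0.75) and Cbx7 (0.73). In the junction Cbx2 was higher than in the corpus (0.71) and Bmi1 (-0.50) and Kdm6a (-0.43) were lower, against 9.14% and 9.93% of all.

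Genes that flank the clusters moved in both directions between forestomach and corpus, where 25.2% of all tested probe sets were higher and 27.6% lower. Of 5 measured neighbours of the Hoxc cluster, Calcoco1 (0.67) and Hnrnpa1 (0.55) were higher and Cbx5 (-0.65) and Atp5g2 (-0.48) lower in the forestomach than in the corpus, and Smug1 was not called (0.33). None of these 5 was called between junction and corpus, where 9.14% of all were higher and 9.93% lower. Beside the Hoxa cluster Hibadh (-1.48) and Snx10 (-1.20) were lower in the forestomach. Beside the Hoxb cluster Snx11 was higher (0.68), and beside the Hoxd cluster Mtx2 (-0.73) and Atp5g3 (-0.67) were lower. In the junction against the corpus Hibadh (-0.83), Snx10 (-0.39) and Mtx2 (-0.35) were called lower.

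Regulators of the gut wall and of stomach regions gave 9 higher and 4 lower of 21 measured in the forestomach against the corpus, with a median of 0.37, where 25.2% and 27.6% of all tested probe sets were called. Gata6 (-4.87) and Gata4 (-3.83), factors of glandular epithelium, Isl1 (-2.70) and Nr2f2 (-1.08) were lower. Prrx1, a gene of mesenchyme, was higher. Prrx1 read 21.3, 29.6 and 23.0 in the corpus, 30.6, 26.4 and 43.9 in the junction and 159.3, 146.1 and 179.1 in the forestomach, with overlap between corpus and junction alone. Its corpus arrays lay below the filter level, so the forestomach was at least 4.65-fold above the corpus. Prrx1 and Twist1, both among the 9 higher, passed the filter with no corpus array above its level, so their differences are a description. Barx1, the mesenchymal gene needed for stomach identity, was higher in the forestomach (1.40) and not called in the junction (0.15). In the junction against the corpus Zeb2 was higher, Gata4, Gata6 and Isl1 were lower, and the other 17 were not called. The shares of all tested probe sets there were 9.14% higher and 9.93% lower.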

How the data were processed

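Each array came as 1 linear intensity signal per probe set, which the authors deposited after MAS5, named in the submitters' processing notes without a version. MAS5 subtracts mismatch probes, which leaves dim signals noisy, and the deposited arrays share a trimmed mean of 200.0. The 64 control probe sets among 45101 were left out. The platform annotation gave a single symbol to 34958, of which 34754 were updated by Entrez ID to GRCm38.p6. Tests used log2(signal + 9.9), where 9.9 is a typical 20th percentile, and a fold on this scale understates the change of dim genes. limma 3.58.1 in R 4.3.3 fitted a mean per zone to the 29511 kept probe sets on all 9 arrays (6 residual and 2.69 prior degrees of freedom, two-sided), and the script was tested on simulated data. Figures were drawn with matplotlib 3.10.9 in Python 3.11.15.

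Members that passed the filter and were called at least once are described by array, the others by name. Of each related list up to 4 called genes with the largest difference per comparison are named. Further list genes, among them Aldh1a1, Aldh1a2, Nr6a1, Smug1, Barx1, Nr2f2 and Twist1, were named after their values were seen. A list gene stands for its kept probe set of highest mean. The members and lists were chosen with earlier results of these data known. Replicates pool different mice, and series numbers pair arrays because they mark shared mice. Same-series deviations from the zone means correlated at -0.0124 to 0.098 over 9 pairs (mean 0.0362). The number of arrays limits the precision. Alternatives were pseudocounts of 1 and 30.9, no filter or a filter on all 9 arrays, quantile normalization, centring on the median or on markers, 1 probe set per gene, robust limma with a trend, fits to 6 arrays, the series as a block, and omission of single arrays or whole series.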

Additional observations from a re-analysis of the deposited data

How the results depend on the processing

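Of the 42 calls of Hox probe sets, 28 held under all 22 alternatives other than the centring on markers, in which they had a value, and 14 were lost under at least 1. With the series as a replicate block 18 probe sets were higher in the forestomach than in the corpus, 8 higher in the junction than in the corpus and 17 lower in the junction than in the forestomach, against 17, 8 and 17 without it, and outside Hoxa3 and Hoxa4 the block changed no call. The filter on all 9 arrays left 9 members, of which 7, 2 and 8 were called in these comparisons, and 1 probe set per gene left 16, of which 11, 4 and 12 were called. With no filter Hoxd1 was called lower in the forestomach than in the corpus (-0.83, adjusted p = 0.0460), 1 lower call against 0. Leaving out an array or a series gave 15 to 18, 5 to 9 and 12 to 16 calls, and 0 to 1 lower calls in the junction against the corpus. The junction count fell to 5 without series 3.

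Centring on the 18 markers gave 6 higher and 10 lower in the forestomach against the corpus, and 8 higher and 1 lower in the junction against the forestomach, where 3.37%, 86.3%, 85.1% and 0.854% of all tested probe sets were called. Median centring moved the median of all probe sets between forestomach and corpus from -0.04 to 0.07, and the calls of all probe sets in the junction against the corpus from 2696 higher and 2929 lower to 3129 and 1579. On the marker scale the difference of forestomach minus corpus turned to -1.11 for Hoxa2, -0.82 and -1.04 for Hoxa3, -0.94 for Hoxa4, -0.14 and -0.09 for Hoxa5, -1.04 for Hoxb2, -0.54 and -0.64 for Hoxb4, -0.08 for Hoxb5, -0.80 for Hoxc6 1427454_at, and -0.61 and -0.82 for Hoxd8. That of junction minus forestomach turned to 0.85 for Hoxa2, 0.31 for Hoxa3, 0.21 and 0.04 for Hoxa5, 0.31 for Hoxb2, 0.26 and 0.35 for Hoxb4, 0.13 for Hoxb5, 0.05 for Hoxc4, 0.63 for Hoxc5 1450832_at, 0.75 and 1.08 for Hoxc6, and 0.71 for Hoxd8. A sign that turned without a call on either scale is not counted here. The shift comes from the construction of that scale, in which the markers have no mean difference. Probe sets near the 40th percentile of signal have the least certain values.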
